A study of Mus musculus with 15 samples.

Results

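The genes Snx29, Peak1, Pid1, Zdhhc14 and Ahrr were followed as genes with long lost stretches of called chromatin mark in mouse bone marrow-derived macrophages (BMDMs) without histone H3.3. They are 5 of 21938 protein-coding genes of the GENCODE M21 annotation (genome build mm10). They were chosen by a large summed length of lost regions, meaning regions of acetylated lysine 27 of histone H3 (H3K27ac) or trimethylated lysine 36 (H3K36me3) that were called in both wild-type (WT) libraries and in neither H3.3 conditional knockout (cKO) library. The lost lengths and everything from the same contrast that goes with them are therefore given as a description without a test. CUT&RUN, in which antibody-bound nuclease releases DNA fragments at a chromatin target for sequencing, had been run on cultured BMDMs, and 10 region lists from a series of 15 samples were used, 2 for each group. WT cells carried floxed alleles of both H3.3 genes, H3f3a and H3f3b, without Cre, and the cKO cells carried the same floxed alleles with Cre at Lyz2 (LysM-Cre). A separate pair of libraries came from BMDMs of mice whose H3f3b gene carries an HA tag (H3.3-HA), where an anti-HA antibody marks the protein made from H3f3b and not that from H3f3a. The mice were on a C57BL/6 background, of both sexes and 8 to 10 weeks old, and cells grew for 6 to 8 days in medium conditioned by L929 cells. Lyz2 drives Cre in myeloid cells as they mature, and the deletion need not be complete in every cell. The labels give biological replicates without naming animals. The 5 IgG samples entered here only as the background of the authors' region calling.

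H3.3 is the H3 variant that is deposited outside replication, at transcribed genes, promoters and enhancers. H3K27ac marks active promoters and enhancers, many of which lie in introns, while H3K36me3 is laid down along gene bodies by SETD2, which travels with elongating RNA polymerase II. The 5 genes are long and act in different pathways. Snx29 encodes a sorting nexin, a family of phosphoinositide-binding proteins of endosomal traffic. Peak1 encodes a pseudokinase scaffold of the cytoskeleton that gathers adaptors such as Shc1 and Grb2. Pid1 encodes a phosphotyrosine-binding adaptor that binds the lipoprotein receptor LRP1. Zdhhc14 encodes an enzyme that attaches palmitate to proteins, and Ahrr encodes the repressor of the aryl hydrocarbon receptor, which competes with that receptor for its partner ARNT.

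The lists came from libraries of 5365319 to 29988098 tags, and differed between genotypes before any gene was looked at. Regions held 24.1% and 21.5% of tags in the WT H3K27ac libraries and 11.8% and 17.8% in the cKO ones. They held 47.1% and 50.2% of tags in the WT H3K36me3 libraries, 46.5% in cKO replicate 2 and 19.3% in cKO replicate 1, which stands apart with 90.7 Mb covered against 163 to 170 Mb in the other H3K36me3 libraries. Of 7 macrophage marker genes, 7 had an H3K27ac region in both WT libraries and 6 in both cKO libraries, with Mertk at 0 in cKO replicate 1. Among markers of other cells, 0 of 4 T cell, 1 of 4 B cell (Ms4a1, in both genotypes), 0 of 4 neutrophil and 0 of 3 other-tissue genes had a region in both WT libraries. The part of these library differences in the results below was not tested. In bulk chromatin, a mark lost in all cells and a mark lost in some cells cannot be told apart.

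Of the lost H3K27ac regions of Snx29, Peak1, Pid1 and Zdhhc14 nearly all lay in introns. Introns make up 96.7% to 99.4% of the coding transcripts used for these genes. In Pid1, 79.5 kb of the gene body lies outside that transcript. A region around the start site of each of the 4 transcripts was called in all 4 H3K27ac libraries. The middle 240 bases of the widest lost H3K27ac region of Snx29, Peak1 and Zdhhc14 are shown first (mm10, plus strand). A lost region is merged over libraries, so its middle need not be called in both WT libraries. The Snx29 stretch lay within a call of WT replicate 2 and between calls of WT replicate 1. The printed stretches lie in Snx29 intron 15 (chr16:11576894-11577133), Peak1 intron 2 (chr9:56323636-56323875) and Zdhhc14 intron 1 (chr17:5626248-5626487). The merged Zdhhc14 region was covered to 100% by WT replicate 1 and to 13.5% by WT replicate 2, so its width rests mostly on replicate 1.
Snx29 lost element: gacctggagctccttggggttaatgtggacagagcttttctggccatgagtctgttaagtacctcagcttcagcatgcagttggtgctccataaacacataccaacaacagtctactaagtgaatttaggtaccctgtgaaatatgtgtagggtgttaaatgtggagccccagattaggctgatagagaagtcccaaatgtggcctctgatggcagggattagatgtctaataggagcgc
Peak1 lost element: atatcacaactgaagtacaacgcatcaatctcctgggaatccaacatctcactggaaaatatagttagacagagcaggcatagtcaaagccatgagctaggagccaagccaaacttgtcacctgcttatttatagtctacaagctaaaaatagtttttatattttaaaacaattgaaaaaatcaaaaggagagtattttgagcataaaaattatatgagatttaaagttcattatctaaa
Zdhhc14 lost element: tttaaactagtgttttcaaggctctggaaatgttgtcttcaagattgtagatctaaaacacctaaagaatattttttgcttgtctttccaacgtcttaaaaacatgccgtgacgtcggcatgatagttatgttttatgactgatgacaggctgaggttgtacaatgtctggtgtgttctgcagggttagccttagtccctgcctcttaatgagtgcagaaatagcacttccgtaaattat
These stretches held 1, 1 and 5 CpG dinucleotides and 46.7%, 32.1% and 38.8% G and C bases, in the order shown.

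Promoters, 250 bases before to 50 after a RefSeq start site, were found for 4 of the 5 genes (RefSeq, GRCm38.p6, the same assembly as mm10), and 3 are shown because their H3K27ac calls differ. The Snx29 promoter (chr16:11322654-11322953, plus strand) and the Pid1 promoter (chr1:84284596-84284895, minus strand) lie in H3K27ac regions called in all 4 libraries. The Ahrr promoter (chr13:74292282-74292581, minus strand) lay in a region of WT replicate 2 and of no other H3K27ac library. Capitals mark a match to the core of the xenobiotic response element, at which the receptor and ARNT bind.
Snx29 promoter: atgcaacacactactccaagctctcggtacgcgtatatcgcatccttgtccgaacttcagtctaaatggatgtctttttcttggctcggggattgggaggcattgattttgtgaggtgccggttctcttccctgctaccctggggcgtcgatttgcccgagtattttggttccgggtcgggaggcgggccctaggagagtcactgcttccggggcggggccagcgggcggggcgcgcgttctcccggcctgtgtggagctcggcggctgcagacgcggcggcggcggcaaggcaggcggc
Pid1 promoter: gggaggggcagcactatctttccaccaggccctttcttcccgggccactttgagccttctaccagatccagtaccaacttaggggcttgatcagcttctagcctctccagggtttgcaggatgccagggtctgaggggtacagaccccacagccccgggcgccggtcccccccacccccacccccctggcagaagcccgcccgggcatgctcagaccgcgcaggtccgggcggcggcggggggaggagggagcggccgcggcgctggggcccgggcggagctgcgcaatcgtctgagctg
Ahrr promoter: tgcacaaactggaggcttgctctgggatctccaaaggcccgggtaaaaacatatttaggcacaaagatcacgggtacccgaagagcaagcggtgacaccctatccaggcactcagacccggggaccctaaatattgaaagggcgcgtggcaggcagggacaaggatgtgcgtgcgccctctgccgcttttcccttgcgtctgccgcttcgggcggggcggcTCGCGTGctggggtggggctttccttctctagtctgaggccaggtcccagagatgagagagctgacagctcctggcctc
The promoters held 29, 20 and 17 CpG dinucleotides, more than any of the lost elements above, against a median of 7 over all 32851 RefSeq promoters. The Peak1 promoter, not printed, held 38.

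Both strands were searched for AP-1 (TGANTCA), PU.1 (GAGGAAGT), C/EBP (TTGCNNAA), the xenobiotic response core (TNGCGTG) and an interferon-response motif (GAAANNGAA), none of which contains another. In the middle 240 bases of the 91 lost H3K27ac regions of the genes, matches were found in 6 regions (6.59%) for AP-1, 2 (2.2%) for PU.1, 8 (8.79%) for C/EBP, 1 (1.1%) for the xenobiotic core and 7 (7.69%) for the interferon motif. Over all 12771 lost regions the shares were 10.8%, 3.27%, 10.7%, 1.42% and 9.53%. The median was 1 CpG in the lost elements of the genes and 1 in all lost regions, against 2 in the 39 regions of the genes that were called in all 4 libraries. The xenobiotic core of the Ahrr promoter, at base 222 of the window, is a match held by 5.07% of all RefSeq promoters. These are letter matches and not measured binding sites, and the middle of a merged region need not be called in both WT libraries.

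H3K27ac was called over much of the bodies of Snx29, Peak1 and Pid1 in WT cells and over little of them in cKO cells. Of 146 H3K27ac regions that both WT libraries called in the 5 genes (body plus 5 kb upstream), 91 (62.3%) were lost, 157 kb in all, against 36.3% of such regions in the genome. Where a call had to cover 50% of a merged region, the lost length was 251.1 kb. At least 1 H3K27ac region was lost in 4 of the 5 genes, where 46.9% of all genes with a WT region had a lost region. Cover, the percent of the gene body within called regions, was lower in both cKO than in both WT libraries in 5 of 5 genes, against 54.3% of all 9171 genes tested. Since lost length chose the genes, these counts describe the choice.

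**Figure D1:**
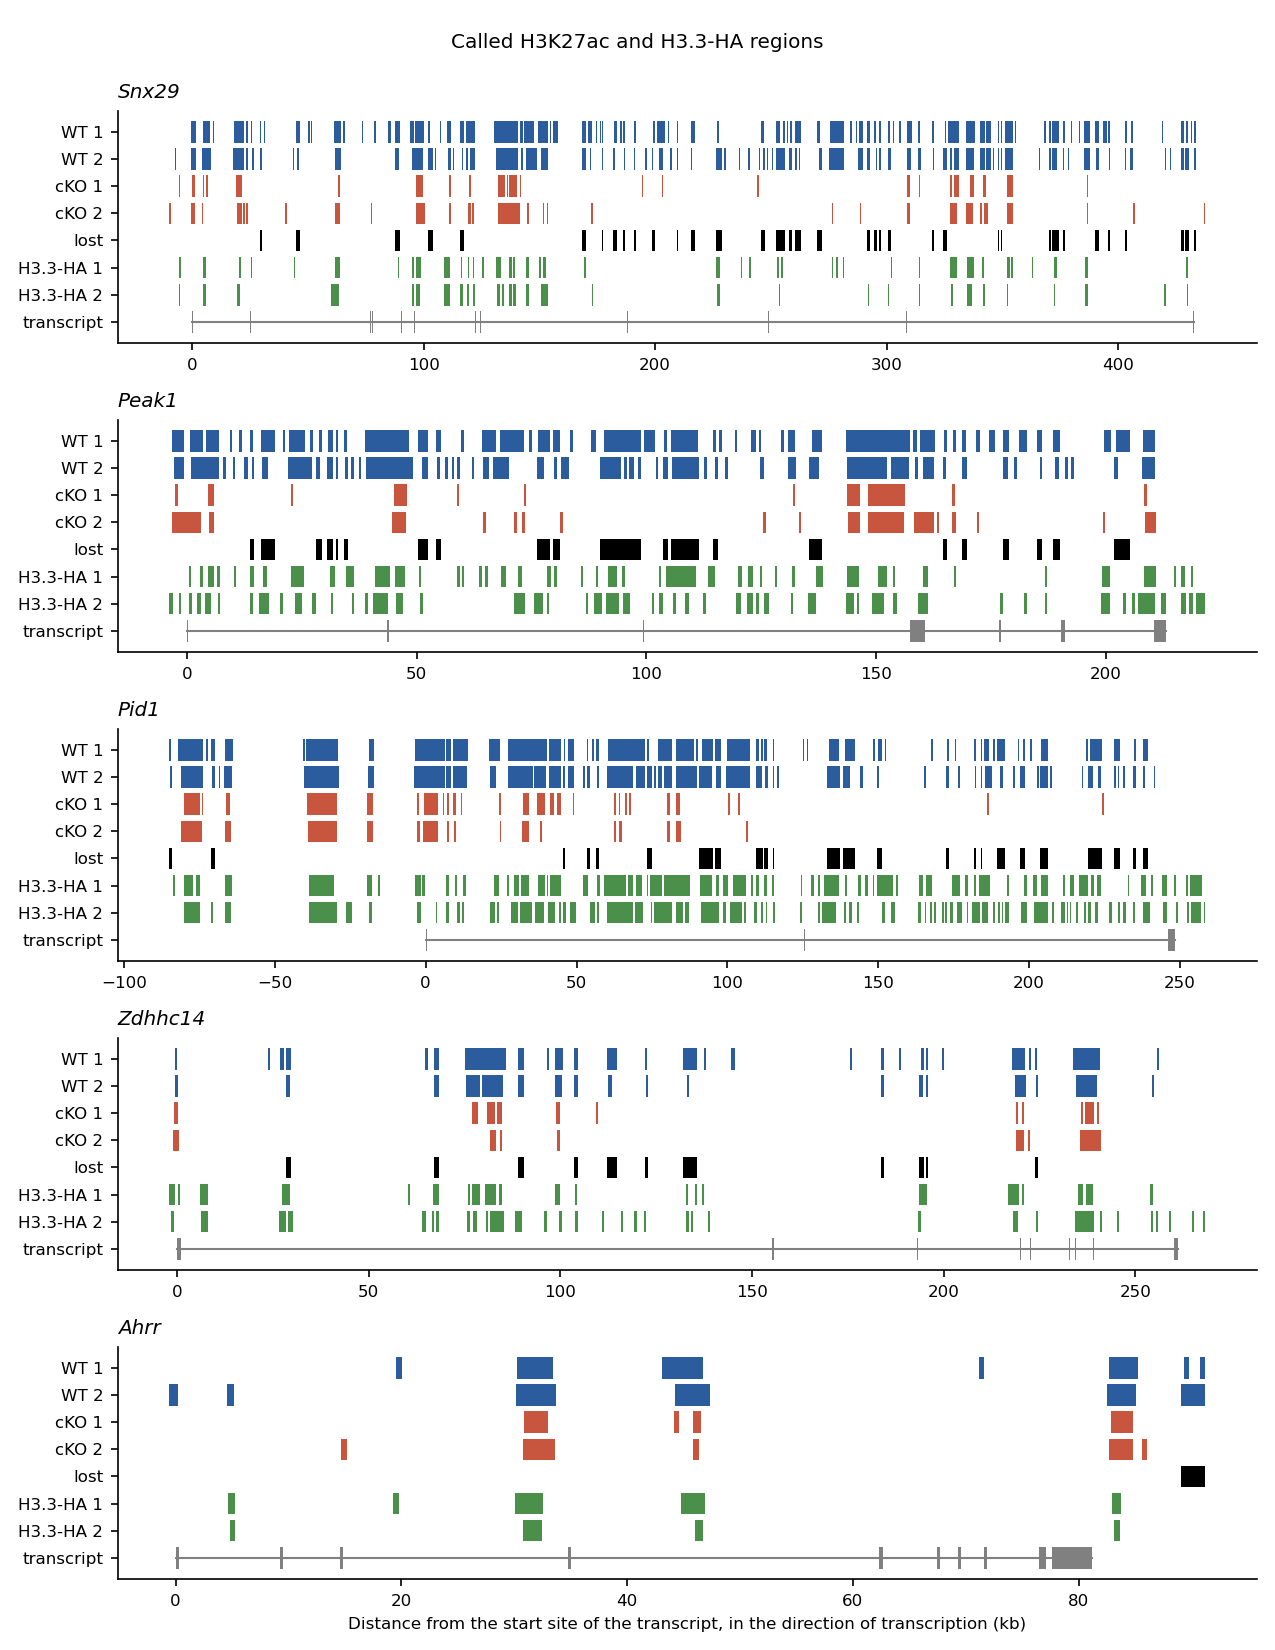
Called H3K27ac regions of each WT (blue) and cKO (red) library, lost merged regions (black) and H3.3-HA regions (green) along each gene. The x axis gives kb from the start site of the transcript in its direction, and exons (grey) are widened where needed to be visible. Lost regions sit in introns throughout Snx29, Peak1 and Pid1. The merged region over the start site holds cKO calls in Snx29, Peak1, Pid1 and Zdhhc14. In Peak1 the RefSeq promoter window itself met a call of cKO replicate 2 and of no other H3K27ac library.

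Snx29 (ENSMUSG00000071669, chr16:11322908-11755472, plus strand) lost the greatest H3K27ac length of any gene. H3K27ac regions covered 32.2% and 27.8% of its 433 kb in the WT libraries and 6.86% and 9.55% in the cKO libraries, 3.66 times less on average. The groups did not overlap. Of 58 regions called in both WT libraries, 35 were lost, 9 stayed in 1 cKO library and 14 in both, and no region was gained. The lost regions were narrow, with a median of 1355 bp and a range of 506 to 4134 bp, against a median of 3804 bp for those called in all 4. All 35 were intronic, with midpoints 29.8 to 430 kb from the start site.

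The loss was uneven along Snx29. Intron 15 of its 20 introns (transcript Snx29-207) held 8 lost regions and 28.9% of the lost length, and 6.33% of its 15.8 kb of H3K27ac shared by the WT libraries was called in any cKO library. Intron 14 was alike, with 9.42% of 5.32 kb left. In intron 13, by contrast, 51.2% of 20.1 kb was left, and the short intron 17 kept 96.9% of 3.37 kb. The widest H3K27ac region of the gene, 12501 bp in intron 13 (chr16:11453352-11465852), was covered to 90.9% and 83.3% by the WT libraries and to 58.3% and 76.5% by the cKO libraries. The promoter region of 2316 bp was covered to 87.0% and 85.1% in WT and to 58.4% and 76.6% in cKO.

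Peak1 (ENSMUSG00000074305, chr9:56201126-56418067, minus strand) had the highest mean H3K27ac cover of the 5 genes in WT cells, though its WT replicate 2 lay below Pid1 in WT replicate 1. Its 217 kb were covered to 48.4% and 40.6% in WT and to 8.32% and 13.8% in cKO, a ratio of 4.03 between the means. No cKO value came near a WT value. Of 30 regions in both WT libraries, 21 were lost and 5 were called in all 4, and per 100 kb of gene 20.8 kb of called region was lost, against 11.7 kb in Snx29 and 13.7 kb in Pid1. Introns 1 and 2 kept 21.4% and 20.1% of their shared WT bases, while introns 3, 4 and 6 kept 47.1%, 61.8% and 74.4%. Intron 5 kept 0% of 2.46 kb, with 3 lost regions. The widest lost H3K27ac region of all 5 genes, 8941 bp, lay at the 3′ end of intron 2 (chr9:56319286-56328226), and a region of 5921 bp was lost in intron 3. Intron 3 also held the widest retained region, 13802 bp, covered to 100% and 90.7% in WT and to 77.5% and 74.7% in cKO. The merged region over the Peak1 promoter was 10365 bp wide, covered to 80.3% and 79.7% in WT, to 71.7% in cKO replicate 2 and to 17.6% in cKO replicate 1. The narrower RefSeq promoter window within it met a call of cKO replicate 2 and of no other H3K27ac library.

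Pid1 (ENSMUSG00000045658, chr1:84036296-84364180, minus strand) kept a larger share of its H3K27ac upstream of transcript Pid1-201 than in the introns of that transcript. The whole gene was covered to 41.2% and 40.4% in WT and to 12.7% and 10.7% in cKO, the closest replicates of the first 3 genes, and 24 of 40 shared WT regions were lost. Transcript Pid1-201 has 3 exons and starts 79.5 kb inside the annotated gene. In the 79.5 kb upstream of it, 84.7% of the 24.8 kb called in both WT libraries was left in cKO. Within the transcript, intron 1 kept 30.6% of 70.7 kb and intron 2 kept 3.03% of 16.5 kb. Intron 2 thus held 13 of the 24 lost regions and 62.5% of the lost length. A retained region of 11985 bp upstream of the transcript (chr1:84313428-84325412) was covered to 92.5% and 97.6% in WT and to 84.7% and 80.5% in cKO, whereas a region of 12521 bp in intron 1 (chr1:84211970-84224490) went from 98.0% and 91.9% to 17.5% and 13.5%.

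Zdhhc14 and Ahrr stood high in the order of lost H3K36me3 length, and their H3K27ac cover was lower in cKO cells too. Zdhhc14 (ENSMUSG00000034265, chr17:5492557-5753811, plus strand) was covered by H3K27ac to 16.9% and 11.6% in WT and to 4.22% and 4.38% in cKO, a difference of -9.9 percentage points. Ahrr (ENSMUSG00000021575, chr13:74211118-74292331, minus strand) was covered to 9.73% and 9.26% in WT and to 4.1% and 4.69% in cKO, a difference of -5.1 points. In both genes each cKO value lay below each WT value, as it did in 54.3% of all genes tested. Ahrr had no lost H3K27ac length that could have entered the choice, and there an exact permutation test (two-sided, over the 4 libraries) gave p = 0.333. No smaller p can be reached with 2 libraries in each group, so the difference could not be called. Zdhhc14 also lost H3K27ac length, and its values are given without a test. The median difference over all genes was -3.03 points.

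The H3K27ac of these 2 genes was arranged differently. Zdhhc14 lost 11 of its 16 shared WT regions, 7 of them in the 154-kb intron 1, which held 77.5% of the lost length. Its promoter region of 1442 bp went the other way, with 34.7% and 45.6% covered in WT and 72.2% and 100% in cKO. Ahrr lost no H3K27ac region that both WT libraries shared. Its 2 shared regions, 3498 bp in intron 3 and 4274 bp in intron 4, were called in all 4 libraries. The first was covered to 92.7% and 100% in WT and to 59.9% and 80.2% in cKO, and the second to 85.5% and 73.7% in WT and to 28.8% and 11.7% in cKO.

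**Figure D2:**
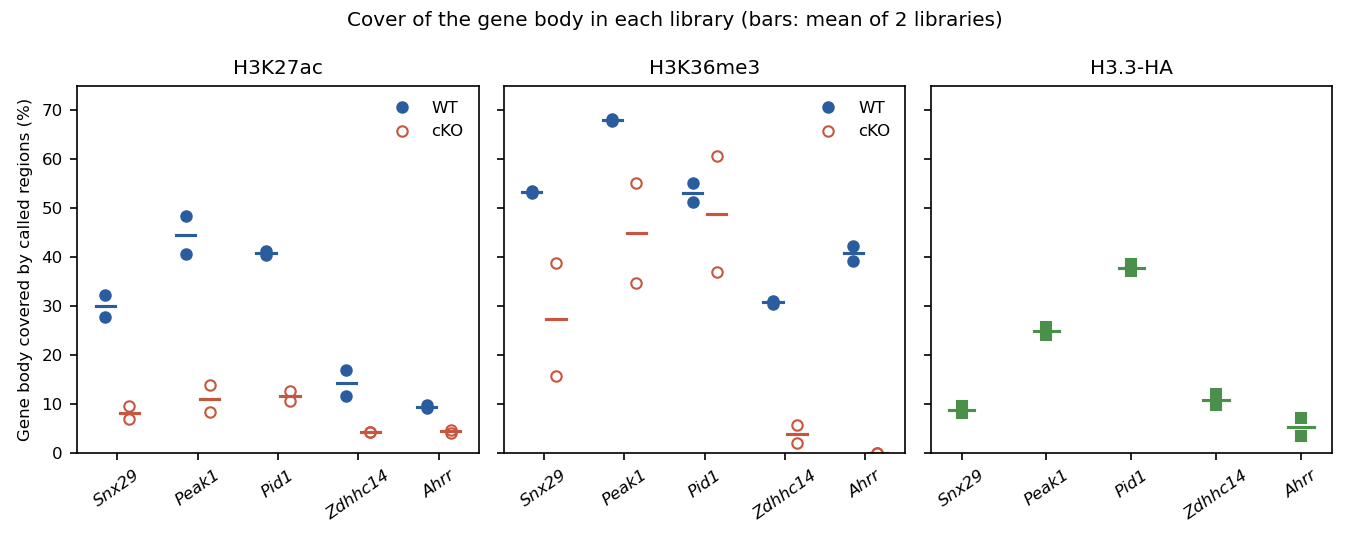
Percent of the gene body within called regions (y axis) in each library for H3K27ac, H3K36me3 and H3.3-HA. Points are single libraries, bars the mean of 2. Both cKO points lie below both WT points in every gene for H3K27ac, and in every gene but Pid1 for H3K36me3, where Ahrr is at 0 in both cKO libraries.

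H3K36me3 regions covered none of the body of Ahrr and little of that of Zdhhc14 in cKO cells. Of 134 H3K36me3 regions that both WT libraries called in the 5 gene bodies, 51 (38.1%) were lost, 115 kb in all, against 20.6% in the genome, and 229.6 kb was lost where a call had to cover 50% of a merged region. At least 1 region was lost in 4 of the 5 genes, where 26.7% of genes with a WT region had one, and cover was lower in both cKO libraries in 4 of 5, against 43.3% of the 9896 genes tested. With the low cKO replicate 1 as the single cKO library, that is without cKO replicate 2, the lost length was 211.6 kb and 5 of 5 genes were lower. Without cKO replicate 1 the lost length was 118.0 kb and 4 of 5 were lower.

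**Figure D3:**
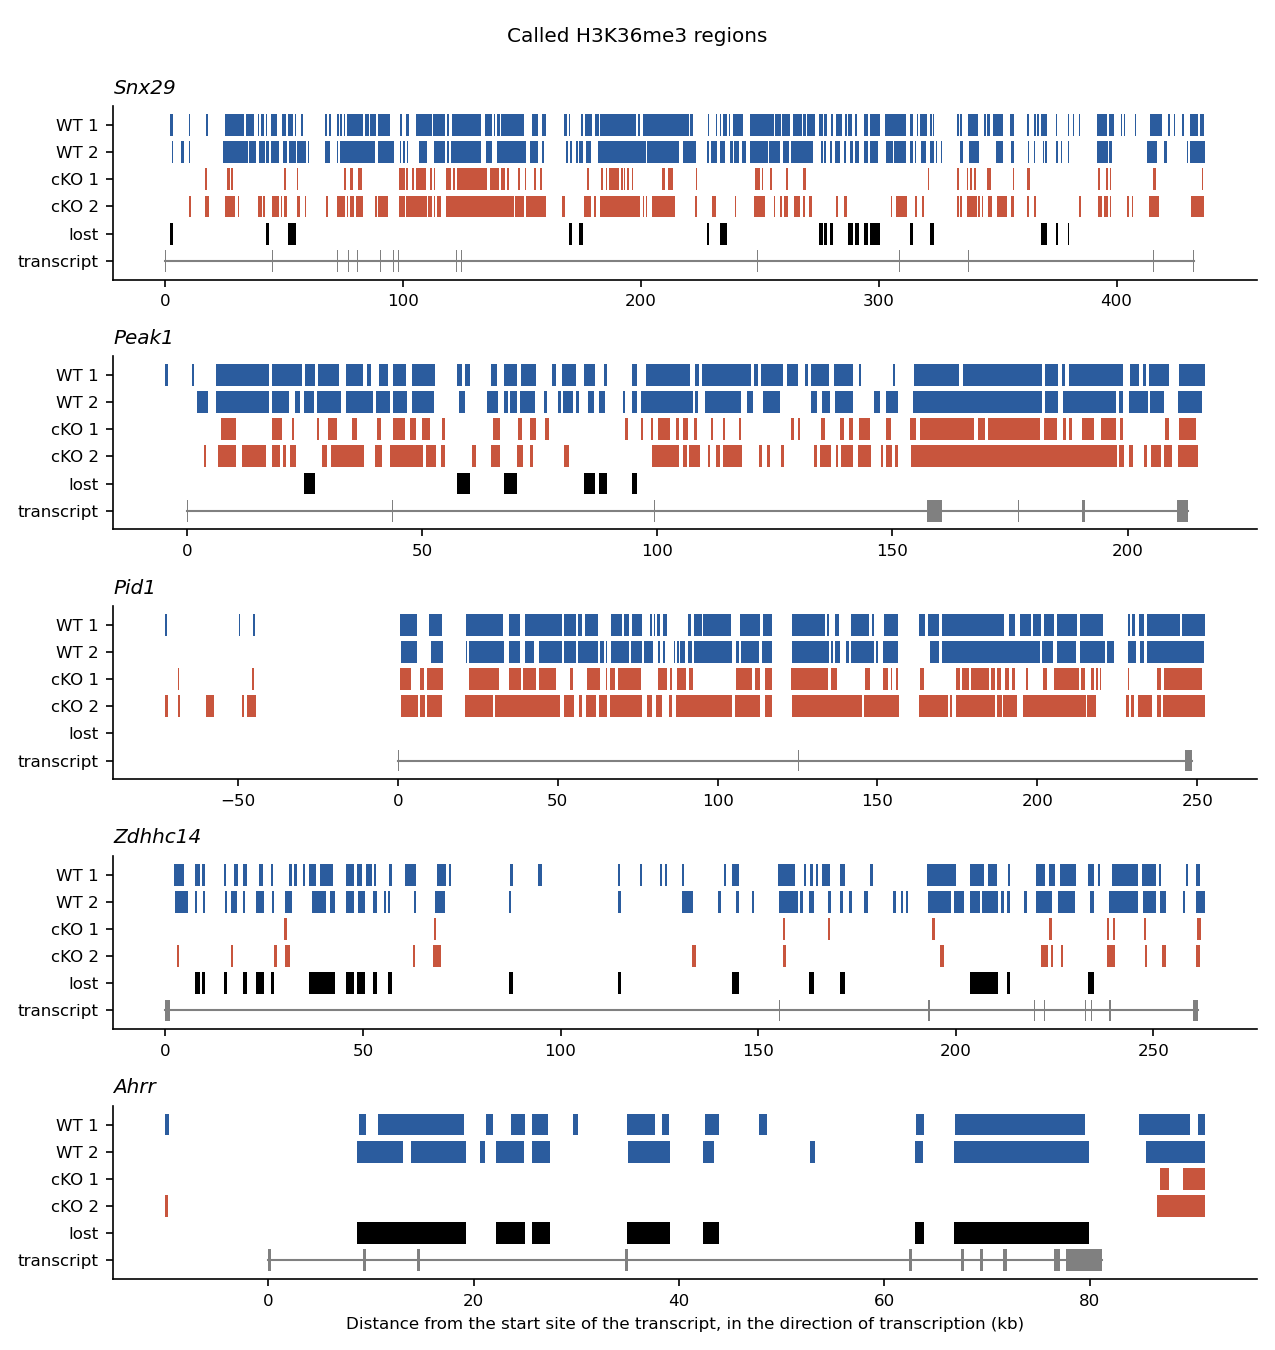
Called H3K36me3 regions of each WT (blue) and cKO (red) library and lost merged regions (black), with the transcript and its exons in grey, widened where needed. The x axis gives kb from the start site in the direction of the transcript. Ahrr has no cKO region in its body, Zdhhc14 has short scattered ones, and Pid1 is covered in all 4 libraries with no lost region.

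In Ahrr, H3K36me3 regions covered 39.3% and 42.3% of the 81.2 kb in WT and 0% in both cKO libraries. All 7 regions shared by the WT libraries were lost, 34.9 kb or 43.0 kb per 100 kb of gene, the highest density of loss in the 5 genes. The widest, 13126 bp (chr13:74212401-74225526), ran from intron 5 through intron 10 and into the last exon, toward the 3′ end. Another of 10583 bp (chr13:74273095-74283677) spanned intron 2 with both its exons and reached into introns 1 and 3. None of the 7 met an H3.3-HA region of both replicates. Of 6175 genes with at least 5 kb of H3K36me3 shared by the WT libraries, Ahrr was 1 of 9 with no such base called in either cKO library. The level of Ahrr RNA was not measured in these lists, so whether transcription changed is not shown.

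Zdhhc14 came next. Its 261 kb were covered by H3K36me3 to 30.5% and 31.1% in WT and to 2.02% and 5.71% in cKO, a ratio of 7.98 between the means. Of 34 shared WT regions 19 were lost, 14 of them in intron 1, and the widest were 7142 bp in intron 3 (chr17:5696065-5703206) and 6664 bp in intron 1 (chr17:5528845-5535508). The regions still called were covered less. The 8 called in all 4 libraries were covered to a median of 79.8% and 90.4% in WT and of 13.5% and 33.6% in cKO. Over the gene 17.3% of shared WT bases were left, and 72 of the 6175 genes kept less.

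Snx29 lost 19 of 54 shared H3K36me3 regions, and its cover was 53.1% and 53.6% in WT against 15.8% and 38.9% in cKO. The cKO replicates differed by more than 2-fold here, in the order of their genome-wide cover. Intron 15, which had lost most H3K27ac, also held 40.0% of the lost H3K36me3 length, and 38.2% of its 34.7 kb was left. Intron 13 kept 92.5% of 33.9 kb. The 2 widest H3K36me3 regions of the gene, 43334 and 42195 bp, were called in all 4 libraries.

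Peak1 and Pid1 stood high in the order of lost H3K27ac length, and differed from each other in H3K36me3. Peak1 was covered to 68.2% and 67.9% in WT and to 34.8% and 55.2% in cKO, a difference of -23.0 percentage points, given without a test since Peak1 also lost H3K36me3 length. Without cKO replicate 1 the difference was -12.8 points. Of its 24 shared WT regions 6 were lost, 5 in intron 2 and 1 in intron 1, while introns 4 and 5 kept 100% of their shared WT bases. In Pid1 the values were 51.2% and 55.2% in WT and 36.9% and 60.7% in cKO, so the groups overlapped (difference -4.4 points, exact permutation test, p = 1). Without cKO replicate 1 the difference at Pid1 was 7.5 points, with the opposite sign. Pid1 lost none of its 15 shared H3K36me3 regions, and all but 1 were also called in both cKO libraries. No H3K36me3 base was shared by the WT libraries in the 79.5 kb upstream of Pid1-201, where 84.7% of shared WT H3K27ac bases were left. Gained H3K36me3 regions, the reverse of lost ones, were found in 2 of the 5 genes, against 7.74% of all genes with a WT region. Pid1 had 3, of at most 1594 bp, and Peak1 had 1 of 903 bp. The 5 genes are longer than most genes (median of all 17425 bp), and the share of 7.74% was not matched on length.

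Measured by the bases that both WT libraries called, the genes fell in a different order for each mark. For H3K27ac, the share left in at least 1 cKO library was 33.6% in Peak1, 38.7% in Pid1, 38.9% in Snx29, 46.4% in Zdhhc14 and 65.4% in Ahrr. The median over 2470 genes with at least 5 kb shared was 58.4%, with a range of 27.9% to 87.7% between the 10th and 90th percentiles. Between 15% and 31.6% of these genes kept less than the first 4, and 60.9% kept less than Ahrr. For H3K36me3 the shares were 0% in Ahrr, 17.3% in Zdhhc14, 64.4% in Snx29, 76.2% in Peak1 and 92.6% in Pid1, against a median of 91.6% over 6175 genes. Pooled over the 5 genes, 38.8% of shared H3K27ac bases and 67.1% of shared H3K36me3 bases were left, the latter 65.5% without cKO replicate 1 and 38.1% without cKO replicate 2.

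**Figure D4:**
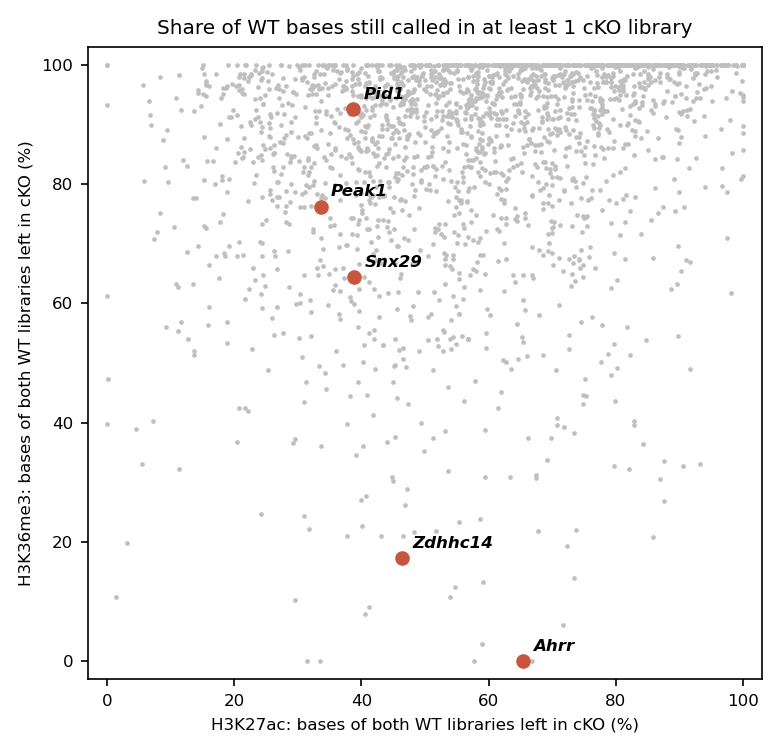
Share of the bases called in both WT libraries that were still called in at least 1 cKO library, for H3K27ac (x axis, %) and H3K36me3 (y axis, %). Grey points are the 2177 genes with at least 5 kb of shared bases of both marks, red points the 5 genes. Ahrr sits at 65.4% and 0%, Pid1 at 38.7% and 92.6%.

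Bases that lost both marks were a small part of each lost length, and no expected overlap was computed. Lost H3K27ac and lost H3K36me3 regions coincided over 3967 bp in Snx29, 7.86% of its lost H3K27ac length and 12.4% of its lost H3K36me3 length. In Peak1 they coincided over 1120 bp, and in Zdhhc14 over 243 bp. In WT cells, however, 46.4% of the later lost H3K27ac length in Snx29, 56.3% in Peak1 and 59.5% in Pid1 lay under H3K36me3 called in both WT libraries, and 16.5% in Zdhhc14. In Ahrr no base carried calls of both marks in both WT libraries.

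**Figure D5:**
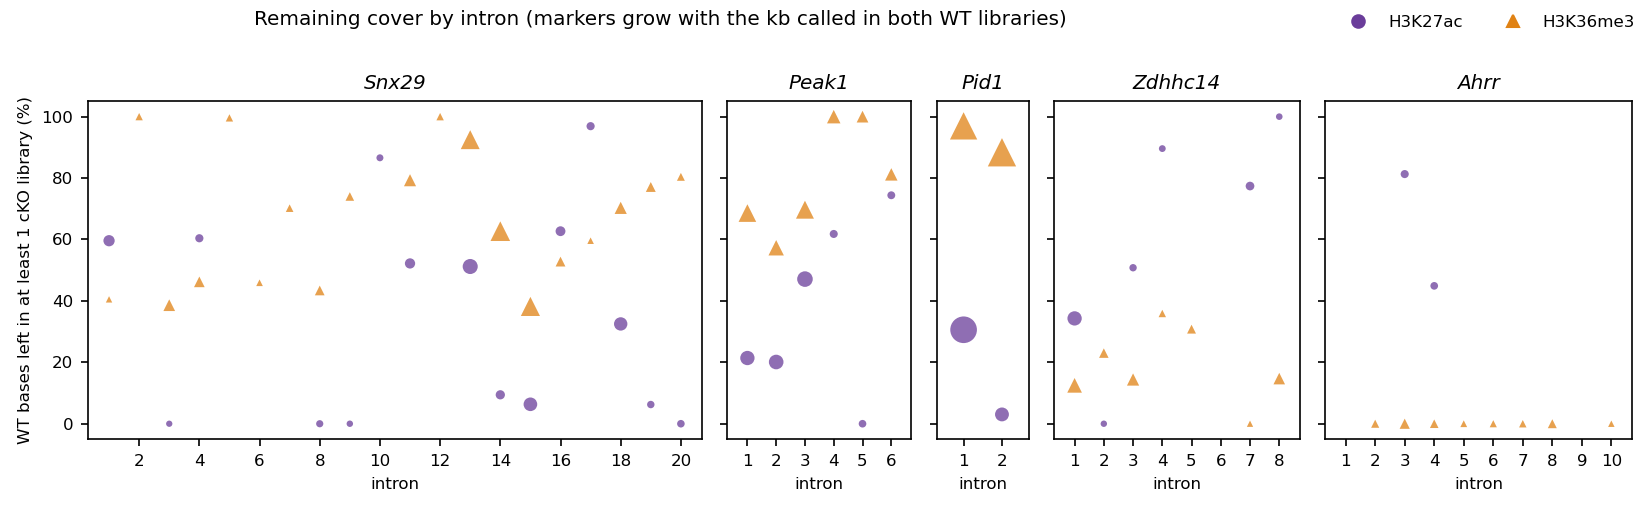
Share of WT bases still called in at least 1 cKO library (y axis, %) by intron (x axis, numbered from the start site) for H3K27ac (circles) and H3K36me3 (triangles). Introns with at least 500 bases called in both WT libraries are drawn, and markers grow with that length. Among introns with more than 5 kb, H3K27ac is lowest in Pid1 intron 2 and Snx29 introns 15 and 14. Points at 0% are Snx29 introns 3, 8, 9 and 20, Peak1 intron 5 and Zdhhc14 intron 2 for H3K27ac, and Zdhhc14 intron 7 and every intron drawn of Ahrr for H3K36me3.

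Of the 91 lost H3K27ac regions 89 (97.8%) lay in introns, 2 lay upstream of Pid1-201 and 0 at a promoter (1 kb before to 100 bp after the start site). Introns make up 94.1% to 99.4% of the coding transcripts used for the 5 genes, near that share. For Pid1, 79.5 kb of the gene body lies upstream of that transcript and is not part of it. Of the 39 called in all 4 libraries 24 (61.5%) were intronic, 7 overlapped an exon, 4 lay at promoters and 4 upstream of Pid1-201. For H3K36me3, 48 of 51 lost regions (94.1%) were intronic against 37 of 57 (64.9%) called in all 4. Retained regions are wider and so meet more exons, and these shares were not matched on width.

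The retained regions of the genes were themselves covered less in cKO cells. Of the 39 H3K27ac regions, 35 (89.7%) were covered less by both cKO than by both WT libraries, where 42.9% of all 15390 such regions were. Their median cover was 94.6% and 87.1% in WT and 41.3% and 55.0% in cKO. Of 57 H3K36me3 regions called in all 4, 29 (50.9%) were covered less, against 37.6% of 15289. The 2 H3K27ac regions with more cover in both cKO libraries were the Zdhhc14 promoter and 1 in Pid1. Regions of one gene share their libraries and are not replicates.

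H3.3-HA, which had no part in the choice of the genes, was called in all of them. A region found in both H3.3-HA replicates lay in the body of 5 of 5 genes, against 35.6% of all protein-coding genes, most of which are shorter (median 17425 bp). That share also counts genes without a WT region of either mark, which could not have been chosen. H3.3-HA covered 37.2% and 38.6% of Pid1 in the replicates, 24.2% and 25.8% of Peak1, 9.83% and 12.1% of Zdhhc14, 9.51% and 8.21% of Snx29, and 7.09% and 3.55% of Ahrr. Pid1 lay above Peak1 and Peak1 above the rest by more than the spread between replicates. The means of Snx29 and Zdhhc14 differed by less than the 2 replicates of Zdhhc14 did, and the replicates of Ahrr were further apart still. Among 1666 genes of at least 80 kb with a shared H3.3-HA region, not restricted to genes with a WT mark region, the median cover was 4.56%. Of those genes 98.9% had lower cover than Pid1, 95% than Peak1, 78.6% than Zdhhc14, 72.5% than Snx29 and 55.6% than Ahrr.

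A larger share of retained than of lost H3K27ac regions met H3.3-HA. Of the 91 lost H3K27ac regions, 36 (39.6%, 95% Wilson interval 30.1% to 49.8%) met an H3.3-HA region of both replicates, against 37 of the 39 called in all 4 (94.9%, 83.1% to 98.6%). In the genome the shares were 26.5% of lost and 59.4% of retained regions. For H3K36me3, 8 of 51 lost regions (15.7%, 8.17% to 28.0%) and 32 of 57 retained regions (56.1%, 43.3% to 68.2%) met one, against 7.2% and 35% in the genome. The intervals cover counting error alone, and retained regions are wider and so meet more of any mark. Lost H3K27ac regions met H3.3-HA in 17 of 24 cases in Pid1, 9 of 21 in Peak1, 6 of 11 in Zdhhc14 and 4 of 35 in Snx29, the lowest share of the 4.

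Counted by bases, the share of H3K27ac left was larger within H3.3-HA than outside it in 4 genes and smaller in 1. The same shares were not computed over all genes, and bases were not matched on the width of their regions, so the count describes these genes alone. In Snx29 64.5% of shared WT bases within H3.3-HA were left and 26.2% of those outside it. The shares were 56.2% and 25% in Zdhhc14, 42.2% and 24.5% in Peak1, and 39.9% and 35.4% in Pid1. In Ahrr they were 57.7% and 89.0%, with 5.77 kb in all. For H3K36me3 the share left was higher within than outside H3.3-HA in Snx29 (75.9% and 63.7%) and Pid1 (96.3% and 89.1%), and lower in Peak1 (61.6% and 80%) and Zdhhc14 (16.3% and 17.4%).

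Of the nearest coding genes named here, every one with H3K36me3 cover in both WT libraries had some in both cKO libraries. Next to Ahrr, Exoc3, a gene of the exocyst complex, lies 2.38 kb away and was covered by H3K36me3 to 93.7% and 95% in WT and to 60.5% and 89.6% in cKO, with no lost H3K36me3 region but 4 lost H3K27ac regions (6482 bp). On the other side, 11.2 kb away, Pdcd6, a calcium-binding protein gene, had 81.9% and 85.9% in WT and 31.5% and 92.4% in cKO, and lost 2 H3K27ac regions (2129 bp). Snx9, 87.5 kb from Zdhhc14, had H3K36me3 cover of 43.7% and 48.3% in WT and of 12.4% and 45.0% in cKO. Tmem242, on the other side of Zdhhc14, had 36.6% and 29.3% in WT and 1.70% and 24.6% in cKO. Dner, which lies 5.66 kb from Pid1, lost 2 H3K27ac regions, Tnfrsf17, Cpped1 and Tspan3 beside Snx29 and Peak1 lost none of either mark, and Sphkap had no called region.

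Long loss was not limited to the 5 genes. In the order of lost H3K27ac length, Fgfr2 (47115 bp) and Elmo1 (45686 bp), which encodes a Rac activator of engulfment, stood between Snx29 (50450 bp) and Peak1 (45090 bp), and Ralgapa2 (42601 bp) followed Pid1 (44899 bp). The annotated entry of Fgfr2 spans 2.96 Mb and overlaps 30 other coding genes. In the order of lost H3K36me3 length, F13a1 (45485 bp), the A chain of coagulation factor XIII that macrophages make, stood before Ahrr (34897 bp), Zdhhc14 (34610 bp) and Snx29 (32031 bp), with Fgfr2 (31562 bp) next. Zdhhc14 was 72nd for H3K27ac with 16284 bp, between 2010111I01Rik (16313 bp) and Uvrag (16276 bp), and Peak1 59th for H3K36me3 with 13021 bp, between Gdpd1 (13179 bp) and Vav2 (12905 bp). A longer gene can hold more lost length, and 304 of the 21938 genes are longer than Snx29 and 3124 are longer than Ahrr.

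No relative had a longer lost sum than the gene of its list that was chosen for that sum, which follows largely from the choice. Among 29 other sorting nexins, H3K27ac cover was lower in both cKO libraries in 19 of 25 tested and higher in 0, and 17 of 26 with a WT region had a lost one, against 54.3% and 46.9% of all genes. For H3K36me3, 7 of 28 were lower, 2 were higher and 5 had a lost region, against 43.3% lower and 26.7% with a lost region among all genes. Snx8 lost 12849 bp of H3K27ac, with cover of 50.4% and 43.9% in WT and of 13.5% and 8.62% in cKO. Snx13 lost 9635 bp, and Snx25, with 9094 bp, also lost 4356 bp of H3K36me3. Snx25, at 119 kb, was the longest of these 3.

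Among 7 partners of the Peak1 family, H3K27ac cover was lower in 5 of 7 (54.3% of all genes) and H3K36me3 cover in 3 of 6 (43.3% of all genes), with none higher. A lost H3K27ac region was found in 4 of 7 with a WT region (46.9% of all genes). For H3K36me3 it was 1 of 6 (26.7%). Ptpn12, a phosphatase of focal adhesion proteins, lost 10996 bp of H3K27ac, and its cover was 55.7% and 48.1% in WT and 14.0% and 14.4% in cKO. Prag1, a relative of Peak1, lost 1028 bp and the adaptor gene Crk 998 bp. Among 9 receptors and adaptors grouped with Pid1, H3K27ac cover was lower in 2 of 6 and higher in 0, against 54.3% lower among all genes. H3K36me3 cover was lower in 3 of 7 and higher in 2, against 43.3% lower among all genes. A lost H3K27ac region was found in 6 of 6 with a WT region, against 46.9% of all genes. For H3K36me3 it was 1 of 7, against 26.7%. Numb (12551 bp) and Dab2 (12170 bp), both endocytic adaptors, lost most H3K27ac of these.

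Among 23 other palmitoyltransferase genes, H3K27ac cover was lower in both cKO libraries in 10 of 14 tested and higher in 1, and H3K36me3 cover was lower in 11 of 17 and higher in 0, against 54.3% and 43.3% lower among all genes. Lost H3K27ac regions were found in 11 of 15 with a WT region, against 46.9% of all genes. Lost H3K36me3 regions were found in 5 of 17, near the 26.7% of all genes. The longest H3K36me3 sums were 5563 bp in Zdhhc17, 3986 bp in Zdhhc21 and 3085 bp in Zdhhc1. Zdhhc21 also lost 9892 bp of H3K27ac. In Zdhhc1 H3K36me3 went from 10.1% and 11.7% in WT to 0% in both cKO libraries.

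In the aryl hydrocarbon receptor pathway, H3K36me3 was lost from both the repressor and the receptor. Ahr, the receptor gene, was covered by H3K36me3 to 17.0% and 17.0% in WT and to 0% in both cKO libraries, with 2 lost regions of 7567 bp in all. It was 1 of 7 pathway genes tested whose cover was lower, with 2 of 7 higher, against 43.3% lower among all genes. Arnt, the shared partner of the receptor and the repressor, lost 9773 bp of H3K27ac and no H3K36me3 region, with H3K36me3 cover of 59.4% and 69.2% in WT and of 34.2% and 67.0% in cKO. For H3K27ac 4 of 7 genes were lower, near the 54.3% of all genes, and 1 was higher. A lost H3K27ac region was found in 1 of 7 with a WT region, against 46.9% of all genes. For H3K36me3 it was 1 of 7, against 26.7%. The pathway lists were written with results of these data known, and these counts carry no test.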

How the data were processed

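The authors aligned paired-end CUT&RUN reads to mm10 with Bowtie2 and called regions with HOMER in each library against IgG. Per the file headers, peaks of 500 bp needed 4-fold enrichment over the control. The deposited lists hold region positions in bp, and the deposited score column is constant, so no signal per region was available and a missed call can be a small change in signal. The control named in the headers differs between genotypes.

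Here the 4 lists of a mark were merged. A merged region was called in a library that overlapped it by at least 1 bp. Lost length was clipped to the gene body plus 5 kb upstream (H3K27ac) or the gene body (H3K36me3). Named beside the 5 genes were the nearest coding gene on each side, the genes next to them in the order of lost length, and up to 3 genes of each pathway list with the greatest lost length, except that some items are not reported here. The 5 genes and the lists were chosen with earlier results of these data known. Cover was compared by exact permutation (two-sided, scipy 1.17.1). The functions recovered every region of simulated lists. Replicates carry no animal identity, so p-values measure the spread between libraries. Alternatives were regions of at least 1 kb, lists of equal number, a window of 20 kb on both sides, at least 50% of a merged region covered, the replicate block and each library left out. Wilson intervals are at 95%.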

Additional observations from a re-analysis of the deposited data

How the results depend on the processing

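The 4 cover differences at Peak1, Pid1, Zdhhc14 and Ahrr kept their sign under wider regions, equal list numbers and the wider window, and so did the counts of 5 and 4 genes. With a call requiring 50% of a merged region, lost length was 251.1 kb for H3K27ac (156.7 kb as reported) and 229.6 kb for H3K36me3 (114.6 kb), and 50.5% of lost H3K27ac regions met H3.3-HA (39.6%). The H3K27ac share left (38.8%) was 37.0% with regions of at least 1 kb, 41.4% with lists of equal number and 29.9% to 32.7% with single libraries left out. H3.3-HA cover of the genes (18.9%) was 14.2% with regions of at least 1 kb and 17.5% with the wider window. Leaving out single libraries gave 118.0 to 211.6 kb of lost H3K36me3, 38.1% to 65.5% of H3K36me3 left (67.1%), 26.8% to 53.8% of lost H3K27ac regions with H3.3-HA, and -16.3 to 7.5 points at Pid1. The sign at Pid1 reversed, to 7.5 points, without cKO H3K36me3 replicate 1. By definition, leaving out a cKO library can only raise or keep lost length and lower or keep the share left. Leaving out narrow regions can likewise only lower or keep cover. The cause of the sizes of these changes and of the other changes was not tested. The 2 libraries per group and the lack of signal per region limit every comparison.

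The labels give WT and cKO libraries the same replicate numbers. With those numbers as a replicate block the differences were -23.0 points at Peak1 and -9.9 at Zdhhc14 (not tested), -4.4 at Pid1 (exact sign-flip p = 1) and -5.1 at Ahrr (p = 0.5, the smallest of 2 pairs). Deviations of same-numbered libraries correlated at -0.104 over 9171 genes for H3K27ac and at 0.079 over 9896 for H3K36me3, so the numbers are not taken as pairs. Crossing the H3K27ac numbers was added after seeing the data. With 2 pairs the sign-flip p cannot fall below 0.5, so neither the crossing nor the block could call a difference at Ahrr. Either pairing also leaves the mean difference there at -5.1 points.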
